A study of Drosophila melanogaster with 4 samples.

Results

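The deposited list of binding sites of the tagged Eip74EF protein held 1929 peaks, of which 394 (20.4%) lay on chromosome 4, on heterochromatic scaffolds or on sequence not placed on any chromosome. They were taken by the name of their sequence alone: 73 peaks on chromosome 4, 46 on 5 heterochromatic scaffolds (2LHet, 2RHet, 3LHet, 3RHet and XHet, called Het here), 16 on U and 259 on Uextra. The other 1535 peaks lay on the 5 large arms 2L, 2R, 3L, 3R and X. The series had 2 anti-GFP precipitations (ChIP) and 2 input samples of unprecipitated chromatin DNA, all from Drosophila melanogaster embryos 8 to 16 h old of the strain Eip74EF-GFP. Both groups carried a transgene with the Eip74EF genomic coding region, with the genotype PBac{y[+]-attP-3B}VK00037, and differed in the precipitation with the rabbit polyclonal antibody ab290. Whether the embryos kept their own Eip74EF gene is not given in the labels, and the collection protocol names y; bw cn sp flies. Precipitated chromatin without the tag, or without antibody, was not among the libraries.

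Eip74EF is an early gene of the response to the steroid hormone ecdysone and encodes transcription factors with an ETS DNA-binding domain. Chromosome 4 is the small dot chromosome of the fly: its chromatin carries heterochromatin proteins such as HP1 and the protein Pof, and yet most of its genes are transcribed. The Het scaffolds are assembled stretches of heterochromatin assigned to a chromosome arm, rich in transposon remnants and simple repeats. U and Uextra are strings of scaffolds that had no known place in release 5, and Uextra collects the shorter and less well assembled ones, so peaks that are neighbours there need not be neighbours in the fly. Reads from repeated sequence can match many places, and how such reads were handled is not given in the sources used here.

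Every peak has 1 position and 1 score given by the authors, with no value for a single library, so the depth behind a peak is unknown and replicate error cannot be given. The scale of the score is not given, and it is used only to rank and describe peaks within the list. Intervals of shares are 95% Clopper-Pearson (exact) and cover no more than counting error among peaks taken as independent, and a count of 0 is given with the share that 3 counts would make. No test was made across peaks, since peaks of 1 list are not replicates, and differences between kinds of sequence are descriptions.

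Chromosome 4 carried peaks far more densely than the other sequences of the set. Between its first peak, at 63520, and the end of its last, at 1347842 (release 5), the 73 peaks made 56.8 per Mb and covered 3.34% of the span. Over such spans, the 3 Het scaffolds with 8 or more peaks had 7.16 peaks per Mb on 2RHet, 6.66 on 3LHet and 7.2 on 3RHet. These spans leave out the stretch before the first peak, which starts at 197958, 458403 and 789113 in turn. Densities from the start of each scaffold were not computed, so the nearness of these 3 values holds only for such spans. Uextra had 9.47 peaks per Mb and U had 1.94, against 13.0 per Mb on the large arms together. Peaks covered 0.345% of the span on 2RHet, 0.422% on 3LHet, 0.395% on Uextra and 0.074% on U, against 0.655% on the large arms. Peaks were thus sparser per Mb on these 3 Het scaffolds and on unplaced sequence than on the large arms, while the 259 peaks of Uextra came from a span of 27.3 Mb. 2LHet, with 2 adjacent peaks, and XHet, with 1, gave no useful span.

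The share of strong peaks was highest on chromosome 4 and lowest on unplaced sequence. A peak was counted as strong when its score was above 33.04, the upper quartile of the list, as 24.9% of all peaks were. On chromosome 4, 28 of 73 peaks were strong (38.4%, interval 27.2 to 50.5%), and a peak with a score of exactly 33.04 was left just outside. On Het scaffolds 15 of 46 were strong (32.6%, 19.5 to 48.0%), on U 1 of 16 (6.25%, 0.158 to 30.2%) and on Uextra 50 of 259 (19.3%, 14.7 to 24.6%), against 386 of 1535 on the large arms (25.1%, 23.0 to 27.4%). The intervals of chromosome 4 and Uextra did not overlap each other, but each overlapped that of the large arms. Those of Het scaffolds and U overlapped all the others. Per Mb of span, strong peaks numbered 21.8 on chromosome 4, 3.07 on 3LHet, 1.95 on 2RHet, 0.9 on 3RHet, 0.121 on U and 1.83 on Uextra, against 3.28 on the large arms.

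At a higher limit the strong share of Uextra was a smaller fraction of that of chromosome 4. Scores above 67.17, the 90th percentile of the list, were held by 10.0% of all peaks. They made up 15 of 73 peaks on chromosome 4 (20.5%, 12.0 to 31.6%), 3 of 46 on Het scaffolds (6.52%, 1.37 to 17.9%), 0 of 16 on U and 5 of 259 on Uextra (1.93%, 0.63 to 4.45%), against 170 of 1535 on the large arms (11.1%, 9.55 to 12.8%). On U, 3 counts would make a share of 18.8%, and the exact interval of 0 counts reaches 20.6%. Among the 100 highest scores of the list, 5 lay on chromosome 4, 2 on Het scaffolds and none on U or Uextra, against 93 on the large arms. Of all peaks, chromosome 4 held 3.78%, Het scaffolds 2.38%, U 0.829%, Uextra 13.4% and the large arms 79.6%. The counts of chromosome 4 and Het scaffolds among these 100 were thus near their shares of the list.

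**Figure D1:**
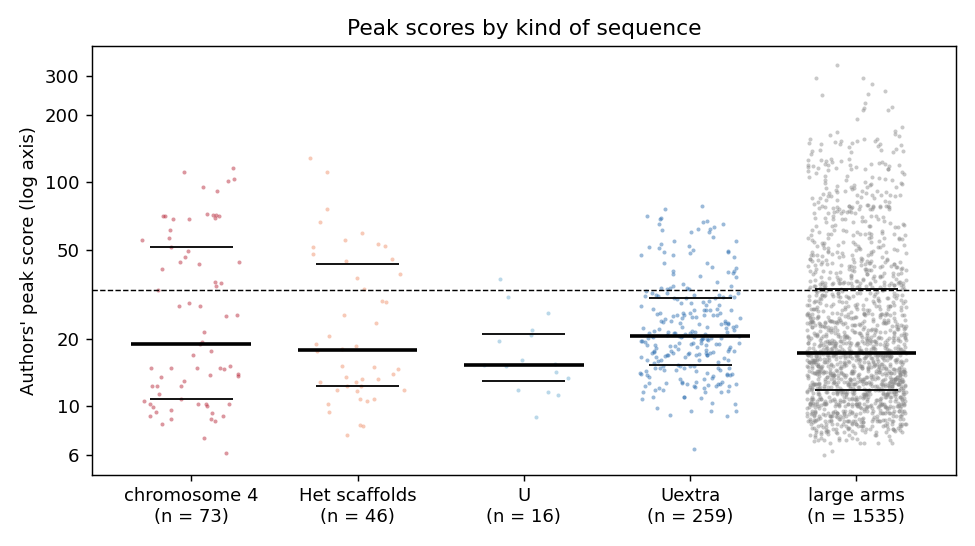
Authors' peak score of every peak (log axis) on chromosome 4, the Het scaffolds, U, Uextra and the large arms, spread sideways at random; thick lines are medians, thin lines quartiles, and the dashed line is the upper quartile of the list, 33.04. Medians lie between 15.3 and 20.5, while the upper quartile is 51.1 on chromosome 4 and 30.2 on Uextra.

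The median scores of these sequences lay close together, between 15.3 and 20.5, and the distributions differed more in their spread. Chromosome 4 ran from 6.18 to 115.82 with quartiles of 10.7, 18.8 and 51.1. Of its 73 peaks, 20 were below the lower quartile of the list (12.30), 16 lay from there to the list median of 17.87, 9 from the median to the upper quartile and 28 above. Uextra had quartiles of 15.2, 20.5 and 30.2. Of its 259 peaks, 27 were below the lower quartile of the list, 70 lay from there to the median, 112 from the median to the upper quartile and 50 above, so its fullest class was the one in which chromosome 4 had fewest peaks. Het scaffolds resembled chromosome 4 in spread (quartiles 12.3, 17.7 and 43.2), and U had few high scores (quartiles 12.9, 15.3 and 21.0).

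The strongest peak of chromosome 4 lay at 1202177 to 1202958, had a score of 115.82 and ranked 64th in the list. It stood alone, 14.5 kb from the nearest other peak. The peak at 199808 to 201723 came next with 110.81, and at 1916 bp it was also the widest of the chromosome. The third, at 591330 to 592411, scored 103.43 and was likewise isolated, with no other peak within 13.1 kb. The peaks at 1047624 to 1048936 (score 101.62) and 1081443 to 1082308 (score 95.04) both lay in runs. The sixth, at 887554 to 888045, scored 91.52 in a width of only 492 bp and had a weak peak of score 10.23 next to it. The other 4 of the 10 highest, at 808272, 683474, 1144019 and 691024, had nearly equal scores between 70.83 and 71.90, and the peak at 487347 to 488374 tied for the last of these places with 70.83.

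**Figure D2:**
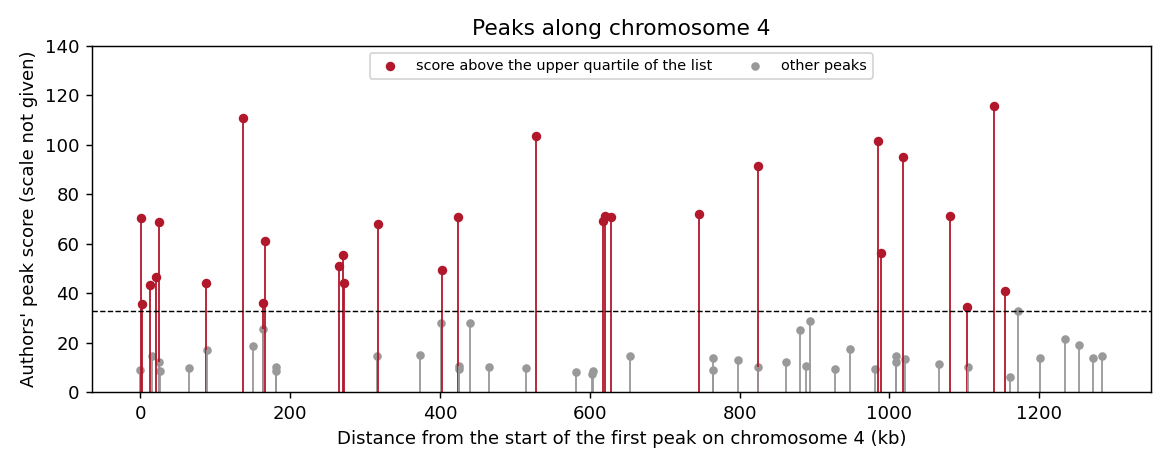
Authors' score of each of the 73 peaks of chromosome 4 (vertical axis) against its distance from the start of the first peak (horizontal axis, kb); red peaks are the 28 above 33.04, the dashed line. Strong peaks occur along most of the chromosome, and the 7 peaks that follow the last strong one score at most 33.04.

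Peaks occurred along the whole assembled length of chromosome 4. Every one of its 14 bins of 100 kb held at least 1 peak, with a median of 5.5 and at most 9, and 11 bins held a strong peak. The bin from 0 to 100 kb was the fullest, with 9 peaks of which 5 were strong, although its first peak starts only at 63520. The bin from 700 to 800 kb held a single peak with a score of 14.54, and those from 900 to 1000 kb and from 1300 to 1400 kb had 5 and 3 peaks with none strong. The first 700 kb held 40 peaks, 19 of them strong (47.5%, median score 28), and the rest held 33, of which 9 were strong (27.3%, median score 14.8). The split at 700 kb was not among the planned comparisons, and no interval was made for these shares. The last strong peak ended at 1218818. The 7 peaks in the 129 kb beyond it scored between 6.18 and 33.04.

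The stretch before the first peak of chromosome 4, which starts at 63520, is left out here. Between consecutive peaks, the longest stretches were 90.6 kb (717703 to 808271), 83.4 kb (244838 to 328265) and 55.6 kb (380675 to 436236). The first of these ended at a strong peak of score 71.90 and the second at one of 51.12, while the third began after one of 68.18. The densest 50 kb held 9 peaks between 63520 and 90634, with 5 strong ones. Places with 7 peaks each, 3 of them strong, followed at 199808 to 244837 and at 1043365 to 1083808.

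Joined over gaps of at most 10 kb, the peaks of chromosome 4 formed 42 runs: 24 single peaks (57.1%), 9 pairs and 9 runs of 3 or more (21.4%), which held 31 of the 73 peaks. Over the whole list 74.2% of runs were single peaks and 9.91% had 3 or more. The limit of 10 kb takes no account of the higher peak density of chromosome 4. The largest run had 6 peaks in 13.8 kb (76861 to 90634), with scores from 8.53 to 68.70 and 3 strong members. A run of 4 peaks lay at 1071883 to 1083808, where 1 strong peak of 95.04 stood beside 3 weak ones of 12.30 to 14.83. The run of 3 at 681043 to 692096 was even and strong, with scores of 69.23, 71.37 and 70.83, and the run at 328266 to 335662 was also strong throughout, with 51.12, 55.46 and 44.17. The run at 943301 to 957265, by contrast, had no strong member and a highest score of 28.73. Of the 28 strong peaks, 15 (53.6%, 33.9 to 72.5%) had another strong peak within 10 kb, and the median distance between consecutive strong midpoints was 26.2 kb. After peaks within 1 kb were merged, 57 sites remained on chromosome 4, and 26 of them (45.6%) held a strong peak.

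The 46 peaks on Het scaffolds included the highest score of the whole set, 128.66, on 3LHet at 1396339 to 1397182. That peak was 844 bp wide, ranked 43rd in the list, and was isolated by 337781 bp on one side and 591252 bp on the other. The second highest, 110.81, lay on 2RHet at 471638 to 472472, and the third, 76.23, on 3LHet at 458403 to 459696. Of 13 peaks on 3LHet, 6 were strong (46.2%, 19.2 to 74.9%), and of 22 on 2RHet also 6 (27.3%, 10.7 to 50.2%). On 3RHet 1 of 8 was strong, a peak of 38.89 at 1898833 to 1899619, and the other 7 scored between 7.40 and 17.92. The 2 peaks of 2LHet lay side by side and scored 29.11 and 51.60, and the only peak of XHet, at 75621 to 76479, scored 33.46. With so few peaks the intervals of the single scaffolds overlapped widely.

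Peaks on Het scaffolds formed 30 runs, of which 20 were single peaks (66.7%) and 4 had 3 or more (13.3%). These shares were near those of the large arms, where 72.2% of runs were single and 10.9% had 3 or more. The largest, on 3LHet at 593195 to 606256, had 5 peaks in 13.1 kb with scores of 37.19, 66.08, 18.51, 12.30 and 52.07, 3 of them strong. The 3 runs of 3 peaks all lay on 2RHet. Of these, only the run at 1621508 to 1623397 had a strong member (45.53), and those at 1256075 to 1260301 and 3270300 to 3272698 reached no more than 12.84 and 10.72. The longest stretch between consecutive peaks on these scaffolds was 1152 kb, on 2RHet between 1623397 and 2775595. The widest Het peak, 1550 bp, lay on 2RHet at 2900278 to 2901827 and had a moderate score of 47.83.

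Uextra was covered unevenly. The 9 Mb from 9 to 18 Mb held 158 of its 259 peaks (61.0%), the first 9 Mb held 50 and the remainder after 18 Mb held 51. Counts per 1 Mb bin, up to the bin of the last peak, ran from 1 to 27 with a median of 7. The fullest bin was the 13th (12 to 13 Mb), with 27 peaks, followed by the 16th with 23 and the 15th with 21. The stretches at the ends of Uextra, outside its first and last peak, were not ranked. Between consecutive peaks the longest were 1302 kb (25247352 to 26549836), 1290 kb (2611811 to 3902023) and 986 kb (23660953 to 24646533). Scores and strong shares changed little along it: medians were 20.3, 20.9 and 19.1 in the 3 segments, and 16.0%, 20.3% and 19.6% of peaks were strong, with intervals that overlapped.

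**Figure D3:**
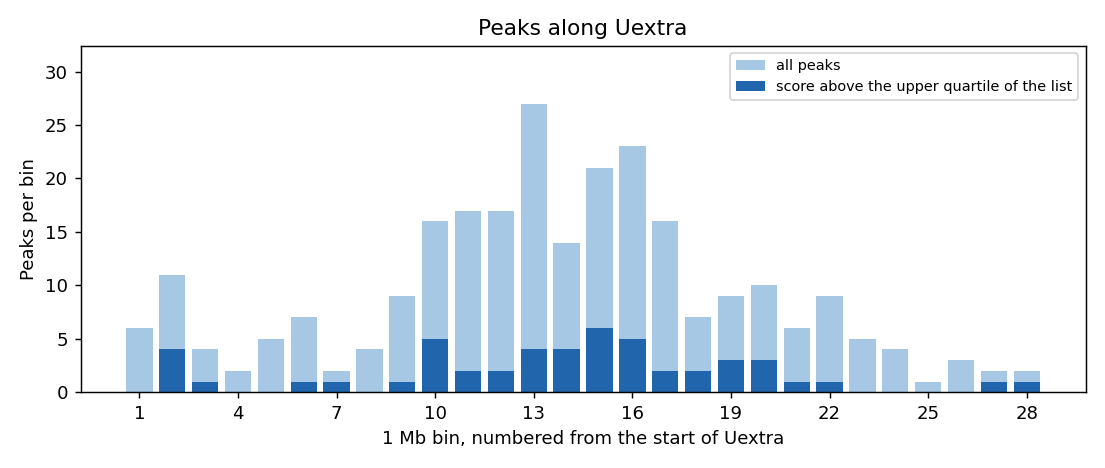
Number of peaks in each 1 Mb bin along Uextra (light) and of those with a score above 33.04 (dark). Bins are numbered from the start of the sequence and stop at the bin of the last peak. The fullest bin is the 13th with 27 peaks, and bins 10 to 17 each hold 14 or more.

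The 5 highest scores on Uextra were 78.11 (9897479 to 9898079), 76.11 (1210212 to 1210839), 70.47 (19186797 to 19187322), 69.51 (13290375 to 13290929) and 68.61 (1104644 to 1105097). They ranked from 143rd to 188th in the list and came from separate places. The peaks at 19186797 and 13290375 had no other peak within 50 kb. The peak at 1210212 followed a peak of 22.47 at 1208082, the peak at 1104644 followed one of 38.79 at 1092464, and the peak at 9897479 was followed by one of 28.29 at 9907854, with the reservation on joined scaffolds given above. None of the 50 strong Uextra peaks had another strong peak within 10 kb. There 3 counts would make a share of 6.00%, and the exact interval of 0 counts reaches 7.11%. The share of strong peaks with such a neighbour was 53.6% on chromosome 4, 33.3% on Het scaffolds (5 of 15) and 21.0% on the large arms (81 of 386). These shares take no account of the density of strong peaks. It was 1.83 per Mb on Uextra, 21.8 on chromosome 4 and 3.28 on the large arms, and its part in the shares was not tested. Uextra peaks formed 223 runs, of which 194 (87.0%) were single and 6 (2.69%) had 3 or more peaks, against 72.2% and 10.9% on the large arms. The largest had 4 peaks at 14202509 to 14213897 with scores of 34.26, 19.44, 17.73 and 25.29. The widest Uextra peak, 804 bp at 12912792 to 12913595, had the modest score of 23.93.

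U was the poorest of these sequences. Its 16 peaks lay between 1079193 and 9341846 and formed 12 runs, 10 of them single peaks and 2 of 3 peaks. The highest scores were 36.77 at 4621674 to 4621943, 30.77 at 4022558 to 4022975 and 26.10 at 1097573 to 1098435. The first of these was the only strong peak on U and was merely 270 bp wide, while the third was the widest of U at 863 bp. The peak at 4621674 was also the only peak of the whole list that was strong and under 300 bp wide. The runs, at 1091792 to 1098435 and 3440821 to 3449430, held no strong peak.

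Wide peaks were found on chromosome 4 and on Het scaffolds and not on unplaced sequence. Of all peaks, 6.43% were over 1 kb wide. On chromosome 4, 10 of 73 were (13.7%, 6.77 to 23.8%), on Het scaffolds 4 of 46 (8.70%, 2.42 to 20.8%), and on U and Uextra 0 of 16 and 0 of 259. The large arms had 110 of 1535 (7.17%, 5.93 to 8.57%). On U and Uextra 3 counts would make shares of 18.8% and 1.16%, and the exact intervals of 0 counts reach 20.6% and 1.41%. Median widths were 492 bp on chromosome 4, 397 bp on Het scaffolds, 354.5 bp on U and 408 bp on Uextra, against 402 bp on the large arms. With peaks within 1 kb merged, the medians of chromosome 4 and Het scaffolds were 611 and 630 bp, so their order depended on how close peaks were treated. The 50 strong Uextra peaks kept to a narrow range of 313 to 742 bp with a median of 537 bp. The 28 strong peaks of chromosome 4 measured 367 to 1916 bp with a median of 824 bp, those on Het scaffolds 513 to 1550 bp with a median of 784 bp, and those on the large arms 305 to 3282 bp with a median of 719.5 bp.

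**Figure D4:**
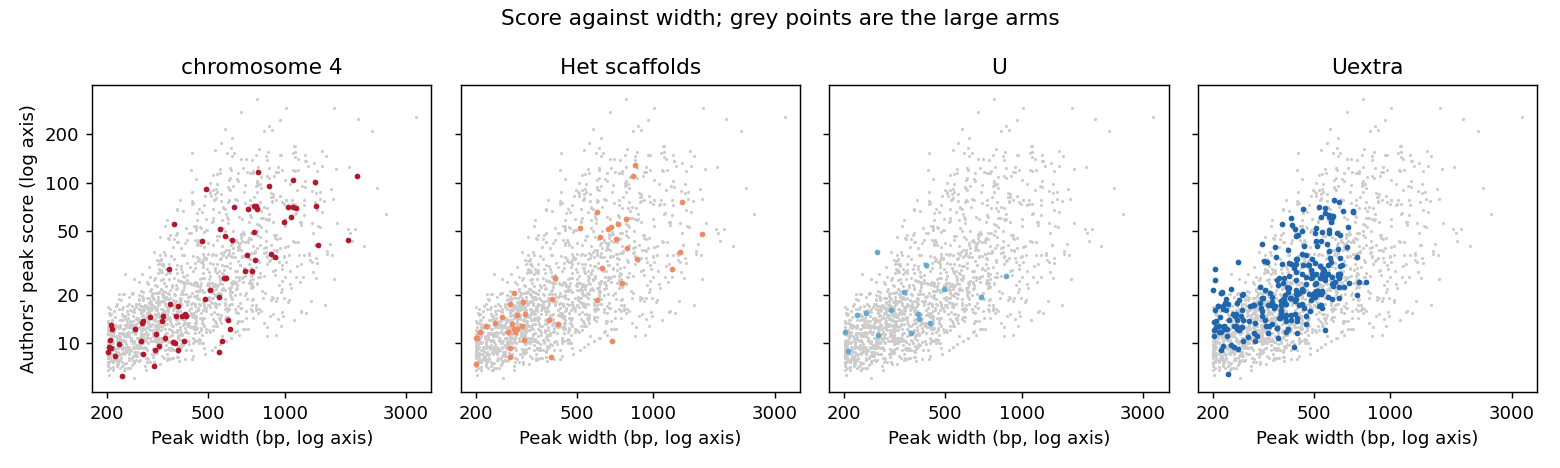
Authors' peak score against peak width, both on log axes, for chromosome 4, the Het scaffolds, U and Uextra (coloured), each over the peaks of the large arms (grey). Peaks over 1000 bp wide appear on chromosome 4 (10) and Het scaffolds (4), and Uextra ends at 804 bp and a score of 78.11.

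Score and width went together on each of these sequences, as a description across peaks that share 1 list. Spearman's rho was 0.819 on chromosome 4 (73 peaks), 0.762 on Het scaffolds (46 peaks), 0.453 on U (16 peaks) and 0.641 on Uextra (259 peaks), against 0.73 on the large arms (1535 peaks). All 10 chromosome 4 peaks over 1 kb wide were strong, with a median score of 70.8, and so were 3 of the 4 on Het scaffolds, against 87 of 110 on the large arms (79.1%). Between 500 and 1000 bp, the median score was 35.7 on chromosome 4, 48.6 on Het scaffolds, 22.8 on U (2 peaks) and 28.3 on Uextra, against 32.4 on the large arms. Below 300 bp the order was another one, with 10.2 on chromosome 4, 12.3 on Het scaffolds, 13.4 on U and 13.9 on Uextra, against 11.0 on the large arms. The median of Uextra was thus above that of chromosome 4 among narrow peaks and below it among peaks of 500 to 1000 bp.

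Peaks of chromosome 4 often lay within 10 kb of one another, and Uextra peaks seldom did. Over the whole list 49.5% of peaks had another peak within 10 kb, midpoint to midpoint. A fixed distance takes no account of density, which was 56.8 peaks per Mb on chromosome 4, 9.47 on Uextra and 13.0 on the large arms. The part of density in these shares, and in the runs and close pairs, was not tested. The share was 67.1% on chromosome 4 (49 of 73, interval 55.1 to 77.7%), 56.5% on Het scaffolds (26 of 46, 41.1 to 71.1%), 37.5% on U (6 of 16, 15.2 to 64.6%) and 24.3% on Uextra (63 of 259, 19.2 to 30%), against 52.8% on the large arms (810 of 1535, 50.2 to 55.3%). Over all peaks, the median gap to the next peak was 12.6 kb on chromosome 4, 37.8 kb on Het scaffolds, 275 kb on U and 57.5 kb on Uextra, against 26.5 kb on the large arms. On chromosome 4 the 49 peaks with a neighbour had a median score of 28 (quartiles 10.5 and 55.5) and the 24 without had 15.0 (12.1 and 29.2). On Het scaffolds the order of the medians was the other way. It was 13.0 for the 26 peaks with a neighbour (quartiles 11.0 and 35.2) and 22.0 for the 20 without (14.8 and 45.4). The quartile ranges overlapped on both kinds of sequence. On Uextra the medians were 21.5 with and 20.2 without a neighbour, and on the large arms 15.8 with and 19.5 without.

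At the shortest distances the difference was similar. Of all pairs of consecutive peaks on a sequence, 10.4% were separated by under 500 bp. On chromosome 4, 15 of 72 pairs were (20.8%, 12.2 to 32%), on Het scaffolds 5 of 41 (12.2%, 4.08 to 26.2%), on U 2 of 15 (13.3%, 1.66 to 40.5%) and on Uextra 5 of 258 (1.94%, 0.632 to 4.46%), against 173 of 1530 on the large arms (11.3%, 9.76 to 13.0%). Many of the pairs on chromosome 4 and on Het scaffolds were unequal, but such counts were not made for the pairs of the large arms. Whether unequal pairs are more frequent on these sequences is thus not shown. On chromosome 4, exactly 1 member was strong in 9 of the 15 pairs, both were in 2 and neither was in 4, and the higher score was between 1.13 and 8.95 times the lower, with a median of 1.98. On Het scaffolds exactly 1 member was strong in 4 of the 5 pairs, and the ratio was between 1.12 and 4.23 with a median of 3.57. The most unequal pair of chromosome 4 was the one at 887554 to 888996, with scores of 91.52 and 10.23, followed by the pair at 63520 to 64898, with 9.01 and 70.30 and a gap of 441 bp. The 3 peaks at 487347 to 488957 were separated by 86 and 84 bp and scored 70.83, 10.47 and 9.25. The 5 close pairs on Uextra had ratios of at most 2.27. Whether the authors' caller split wider sites into such pairs was not tested.

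**Figure D5:**
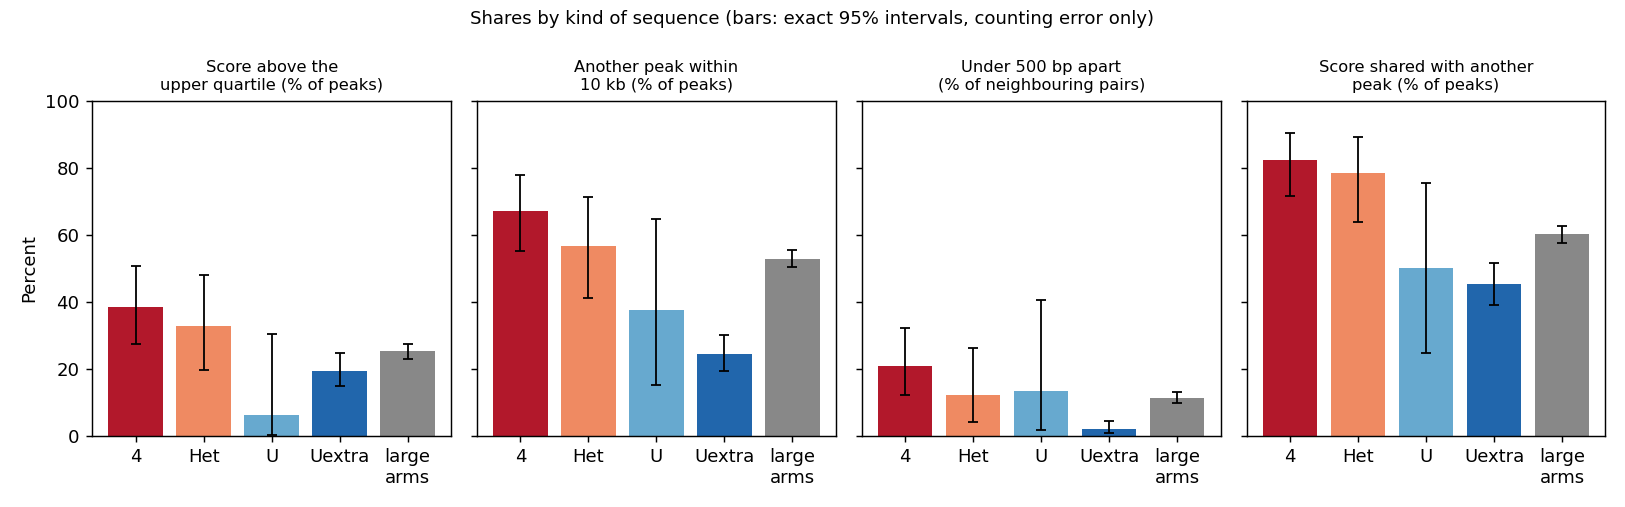
Shares for chromosome 4 (4), the Het scaffolds (Het), U, Uextra and the large arms, in percent of peaks or of neighbouring pairs, with exact 95% intervals for counting error. Uextra has the lowest share of peaks with a neighbour (24.3%) and of close pairs (1.94%), and chromosome 4 the highest of each (67.1% and 20.8%).

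The scores themselves repeated to differing degrees. In the list, 59.3% of peaks had a score, as given to 2 decimals, that at least 1 other peak also had. On chromosome 4, 60 of 73 did (82.2%, 71.5 to 90.2%), on Het scaffolds 36 of 46 (78.3%, 63.6 to 89.1%), on U 8 of 16 (50.0%, 24.7 to 75.3%) and on Uextra 117 of 259 (45.2%, 39.0 to 51.5%), against 922 of 1535 on the large arms (60.1%, 57.6 to 62.5%). The score 14.83, for instance, was given to 11 peaks of the list, 4 of them on chromosome 4 and 2 on Uextra. Among strong peaks the gap was wider: 21 of 28 on chromosome 4 shared their score (interval 55.1 to 89.3%), 11 of 15 on Het scaffolds (73.3%, 44.9 to 92.2%) and 5 of 50 on Uextra (10.0%, 3.33 to 21.8%), against 145 of 386 on the large arms (37.6%, 32.7 to 42.6%). Among peaks below the lower quartile 18 of 20 on chromosome 4, 7 of 11 on Het scaffolds (63.6%) and 14 of 27 on Uextra (51.9%) shared theirs, against 287 of 417 on the large arms (68.8%). Among strong peaks the share was above that of the large arms on chromosome 4 and Het scaffolds and below it on Uextra. These intervals did not overlap that of the large arms. Among peaks below the lower quartile the intervals of all 3 overlapped it, so no difference from the large arms is shown there. The same held from the lower quartile to the median. From the median to the upper quartile, 52 of 112 Uextra peaks shared their score (46.4%, 37 to 56.1%), against 61.5% on the large arms (56.2 to 66.6%). Those 2 intervals just failed to overlap, while those of chromosome 4 and Het scaffolds overlapped that of the large arms. How the score was computed is not given in the sources used here, and the part of that step in these shares was not tested.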

How the data were processed

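Chromatin immunoprecipitation followed by sequencing gave 2 ChIP and 2 input libraries, and the authors deposited 1 peak list for all of them. Per the file headers, positions are in FlyBase release 5, and the source column names MACS. MACS2, BWA and the CASAVA versions 1.7.0.2 and 1.7.0.3, and BDGP5 as the genome build, are listed per the submitters' processing notes. Per the labels' protocols, embryos were fixed in 1.8% formaldehyde for 15 min. The deposited score column holds 1 score per peak. Its scale, the threshold, the use of input and any pooling of libraries are not stated in those sources, so a score may rest on either library or both.

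The 394 members were selected by sequence name. Start and end were used as deposited, with width as end minus start plus 1. Python 3.11.15 with pandas 2.3.3 and scipy 1.17.1 gave counts, quartiles, runs (gaps of at most 10 kb), neighbours (midpoints within 10 kb), pairs under 500 bp apart and exact intervals. Joining and neighbour counts were checked on simulated positions. No peak was filtered out. The gene table at hand follows release 6, so no gene or sequence was assigned to a peak. Peaks named by position are the 10 highest on chromosome 4, the 5 highest on Uextra and the 3 highest on Het scaffolds and on U. The widest of each, the largest runs and the 3 longest stretches between peaks of chromosome 4 are also named. Other positions were picked after their values were seen. The members, groups and limits were chosen with earlier results of these data known, and the close pairs, shared scores and Uextra segments after these values were seen.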

Additional observations from a re-analysis of the deposited data

How the results depend on the processing

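Of 67 alternative values, 38 stayed within the interval of the value given or within 1.5 times a count. With only scores of at least the list median kept, 37 peaks remained on chromosome 4, 23 on Het scaffolds, 6 on U and 162 on Uextra, with median scores of 51.1, 44.6, 23.9 and 26.1, median widths of 760, 712, 455 and 489 bp, and 26, 18, 6 and 144 runs. The density of chromosome 4 was then 28.8 per Mb and its fullest 100 kb bin held 5 peaks. All of these follow from the removal of low-scoring peaks. With strong peaks defined by the 90th percentile, the shares were 20.5% on chromosome 4, 6.52% on Het scaffolds, 0% on U and 1.93% on Uextra. Merging peaks within 1 kb raised the median width to 611 bp on chromosome 4 and 630 bp on Het scaffolds, which turned the order of these widths, and the median score to 28 and 18.8. Joining over up to 20 kb left 25 runs on chromosome 4, and bins of 50 kb gave 18 peaks per 100 kb in the fullest. Within 20 kb, 90.4% of chromosome 4 peaks and 41.7% of Uextra peaks had a neighbour, and within 5 kb 57.5% and 15.4% did. Pairs under 250 bp apart made up 9.72% on chromosome 4 and 1.16% on Uextra. Leaving the single run of 84 peaks out of the large arms gave 25.6% strong peaks there and 9.89% close pairs. The alternatives for close pairs and for that run were chosen after seeing the data. No paired analysis was possible because peaks carry 1 value over all libraries, which also prevents leaving out a replicate. The planned use of sequence and annotation was not run.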
